A study of Homo sapiens with 5 samples.

Results

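The genes described here encode the enzymes, regulators, carriers and lysosomal activators that make ceramide, convert it to more complex sphingolipids and break those lipids down again. They were taken from the deposited expression table by symbol from a list of 45, and all 45 were among its 26506 genes. Of these, 41 reached 1 TPM (an abundance scaled to transcript length and to the library's total) in at least 1 library, as did 15761 genes in all. The other 4, ACER1, CERS3, DEGS2 and SGPP2, stayed below that level throughout. RNA was sequenced from H9, an established human embryonic stem cell line, in 5 libraries with 1 library per condition. These were B3GALT5-/- cells (B3GALT5-KO) in 2iLAF, labelled naive, wild-type (WT) cells in 5iLAF, also labelled naive, WT cells in 2iLAF, a control labelled primed-naive, B3GALT5-KO cells in basal medium and WT cells in basal medium, both labelled primed. Both 2iLAF and 5iLAF are inhibitor-based media used to convert primed cells, which resemble the epiblast after implantation, to the naive state before it. The design asked how loss of B3GALT5, which extends globo-series glycosphingolipids, altered transcripts in primed cells and in cells moved towards the naive state, with no B3GALT5-KO library in 5iLAF analysed here. Whether the knockout cells were 1 clone is not given in the sources used here. With 1 library per condition no difference has a replicate check, no test was run and depth is unknown, so the values describe these 5 libraries.

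Sphingolipids are built from serine and palmitoyl-CoA by serine palmitoyltransferase at the endoplasmic reticulum, then reduced, acylated and desaturated to ceramide. Ceramide is the branch point, from which cells make sphingomyelin, glucosylceramide (the base of globo-series and ganglioside lipids, including surface antigens used to stage human pluripotent cells), galactosylceramide and ceramide-1-phosphate. Lysosomal hydrolases with their activator proteins return these lipids to ceramide and sphingosine, which is salvaged or phosphorylated and cleaved.

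B3GALT5 itself stood at 1.17 TPM in B3GALT5-KO 2iLAF, 2.08 in WT 5iLAF, 5.13 in WT 2iLAF, 5.98 in B3GALT5-KO basal and 9.31 in WT basal. The edited part of the gene is not given in the sources used here, so its transcript does not check the knockout. Between 13729 and 14156 genes reached 1 TPM per library. All 8 core pluripotency markers reached 1 TPM in every library, but at different levels. POU5F1, NANOG and TDGF1 were lowest in WT 2iLAF, with NANOG at 16.5 TPM there against 99.0 to 171 TPM elsewhere. SOX2, LIN28A, SALL4 and PRDM14 were highest there. Of 12 naive markers 7 reached 1 TPM in each 2iLAF or 5iLAF library, against 4 and 5 in B3GALT5-KO and WT basal. The 12 naive markers summed to 129 and 158 TPM for B3GALT5-KO 2iLAF and WT 5iLAF. The sum was 31.95 TPM for WT 2iLAF and 11.8 for each basal library. DNMT3L stood at 1.57 TPM for WT 2iLAF, against 51.4 and 76.4 in the naive-labelled libraries, but KLF4 was highest there. KLF17, specific to naive human cells, was listed at 0 in B3GALT5-KO 2iLAF and stood at 0.12 TPM in WT 5iLAF. Markers of other cell types also differed between libraries. Granulocyte markers were all at or above 1 TPM in B3GALT5-KO 2iLAF (16 of 16, summed to 1327.5 TPM), against 2 of 16 in WT 5iLAF (11.9 TPM), 2 in WT 2iLAF (4.74 TPM) and 1 in each basal library (3.30 TPM in B3GALT5-KO and 2.34 TPM in WT). The 14 fibroblast markers, among them THY1, which is also a primed marker and stood at 754 and 716 TPM in B3GALT5-KO and WT basal, summed to 7052 TPM in B3GALT5-KO 2iLAF, 2617 in WT 5iLAF, 448 in WT 2iLAF, 1040.3 in B3GALT5-KO basal and 975 in WT basal. Erythroid markers summed to 229 TPM in B3GALT5-KO 2iLAF and 235 TPM in WT basal, and to between 1.95 and 19.1 TPM in the other 3 libraries. Trophoblast markers summed to between 119 and 146 TPM outside basal medium, and to 53.8 and 47.8 TPM in B3GALT5-KO and WT basal. TEAD3 was the highest of them in every library, at 31.5 to 52.8 TPM. TFAP2C stood at 36.5 to 55.2 TPM outside basal medium, against 6.61 and 3.72 in B3GALT5-KO and WT basal. GATA2, GATA3 and TFAP2A were also higher outside basal medium. KRT7 was lower in both naive-labelled libraries than in the basal ones but highest in WT 2iLAF, at 27.0 TPM. CGA and ELF5 were listed at 0 throughout. The sum therefore does not measure trophoblast content. Primed markers summed to 1093 and 959 TPM in the naive-labelled libraries, 2576 in WT 2iLAF, and 4339 and 3909 in B3GALT5-KO and WT basal. In such bulk libraries a different share of some cell type and a different amount of RNA per cell cannot be told apart, and the part of these cell types in the values below was not tested except where a value is given.

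**Figure D1:**
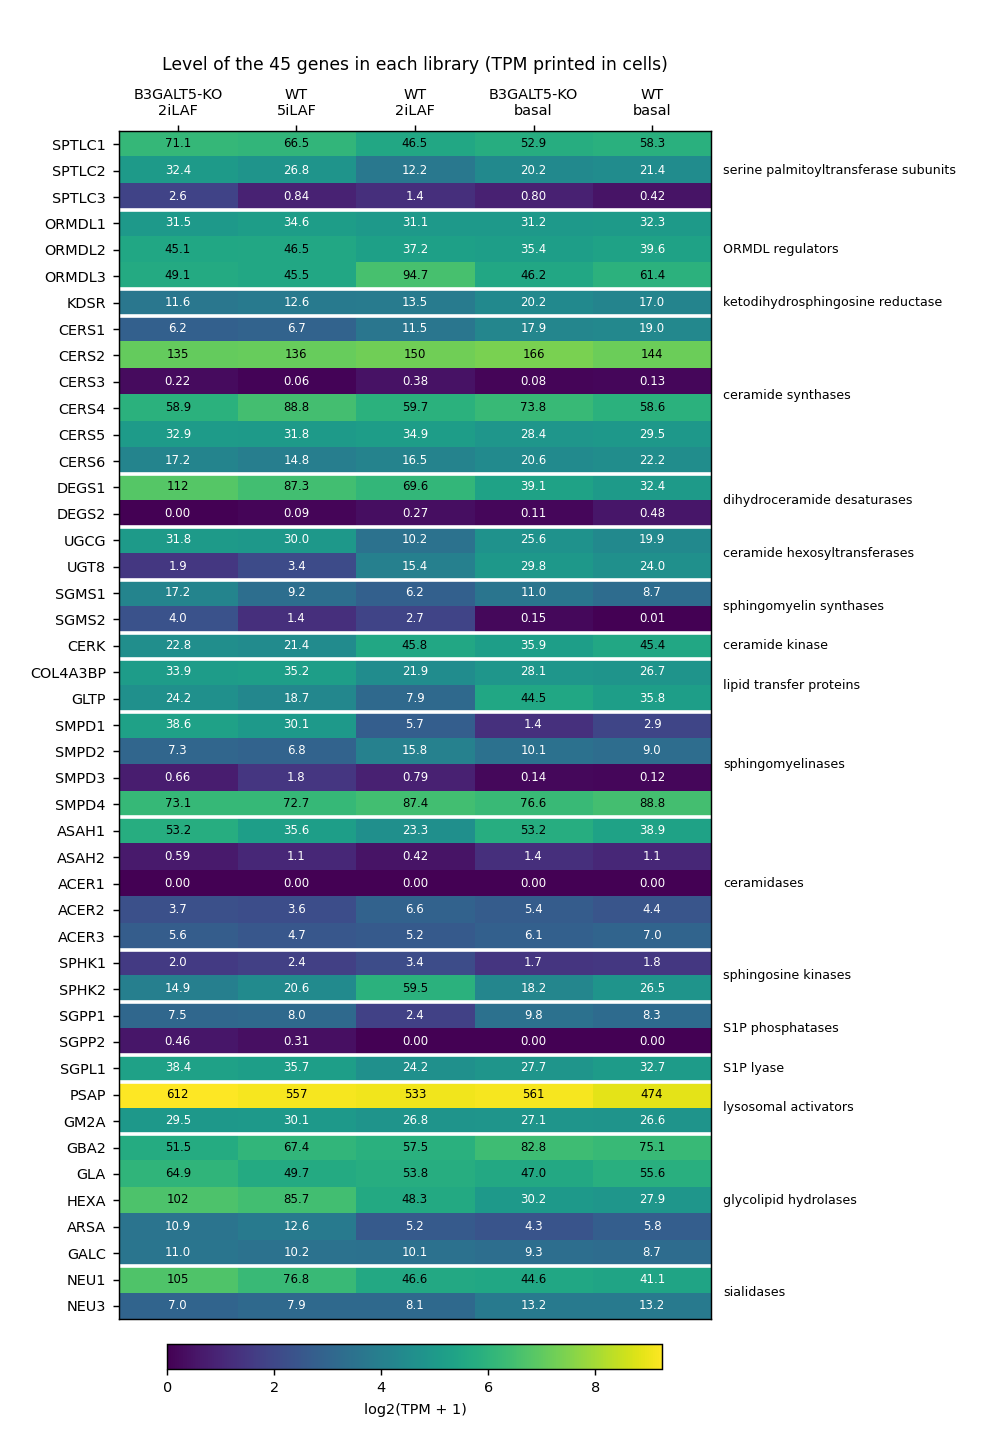
Level of each of the 45 genes (rows, grouped by role) in the 5 libraries (columns). Colour gives log2(TPM + 1) and the printed number TPM. PSAP is the brightest row in every library, SMPD1 is bright in the columns at the left only, and UGT8 in the 3 columns at the right.

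The level of the genes spanned a wide range within each library, as the plot of all 45 levels shows. PSAP, the precursor of the saposins that present sphingolipids to lysosomal hydrolases, was highest in each library, between 474 and 612 TPM, and CERS2 had the next highest mean, between 135 and 166 TPM. In sum the 45 genes took 1980 TPM in B3GALT5-KO 2iLAF, 1839 in WT 5iLAF, 1713 in WT 2iLAF, 1759.6 in B3GALT5-KO basal and 1647 in WT basal. Across the 5 libraries 11 genes differed by less than 1.5-fold between their highest and lowest value on the TPM + 1 scale, or 26.8% of the 41 against 24.2% of all genes tested. They were ORMDL1, ORMDL2, GM2A, SMPD4, CERS2, CERS5, CERS6, GALC, PSAP, GLA and ACER3. A range of at least 2-fold was seen for 20 of the 41 (48.8%), against 46.1% of all genes. A range of at least 4-fold was seen for 4, SGMS2, GLTP, UGT8 and SMPD1, against 15.1% of all genes. By these shares the 41 genes were about as variable as all genes, or less so.

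Libraries were compared gene by gene as log2((TPM + 1)/(TPM + 1)), with a limit of 1 in size, that is 2-fold, for calling a difference. In naive-labelled cells the lysosomal enzymes SMPD1 and HEXA, the desaturase DEGS1 and the sphingomyelin synthase SGMS2 were higher, and the galactosylceramide synthase UGT8 and the ceramide synthase CERS1 lower, than in primed-labelled cells. Taking B3GALT5-KO 2iLAF and WT 5iLAF together against B3GALT5-KO basal and WT basal, SMPD1, HEXA, DEGS1 and SGMS2 were higher in both naive-labelled libraries than in both primed-labelled ones by at least 2-fold, and UGT8 and CERS1 lower. These were 6 of 45 genes, or 14.6% of the 41 above the level filter, where 15.4% of all genes tested met the same rule, 8.12% as higher and 7.25% as lower. The median difference between the means of the pairs was 0.15 over the 41 genes and -0.03 over all genes. Libraries of a pair differ in genotype and, in the naive-labelled one, in medium, so they are not replicates. The count was 7 without B3GALT5-KO 2iLAF, 8 without WT 5iLAF, 6 without B3GALT5-KO basal and 7 without WT basal, and the share of all genes was 18.4%, 22.5%, 18.4% and 19.6% in that order. Leaving out a library loosens the rule, so neither the count nor the share could fall. Without a size limit, the values of the pairs did not overlap for 33 of the 41 genes (18 higher, 15 lower in the naive-labelled pair), where 74.9% of all genes did not (35.5% higher, 39.4% lower).

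SMPD1, the acid sphingomyelinase that turns sphingomyelin into ceramide in the lysosome, had the highest ratios of the 41 genes in this comparison. It stood at 38.6 TPM in B3GALT5-KO 2iLAF and 30.1 in WT 5iLAF, against 5.74 in WT 2iLAF, 1.41 in B3GALT5-KO basal and 2.85 in WT basal. The gap between the pairs was 3.01 on the log2(TPM + 1) scale, and WT 2iLAF lay nearer the basal libraries. HEXA, the alpha subunit of beta-hexosaminidase, which trims GM2 ganglioside, stood at 102 and 85.7 TPM in B3GALT5-KO 2iLAF and WT 5iLAF, 48.3 in WT 2iLAF, and 30.2 and 27.9 in B3GALT5-KO and WT basal. NEU1, the lysosomal sialidase, stood at 105 and 76.8 TPM in the same naive-labelled libraries, 46.6 in WT 2iLAF, and 44.6 and 41.1 in the basal ones. ARSA, arylsulfatase A, which removes the sulfate of sulfatide, stood at 10.9 and 12.6 TPM, 5.17 in WT 2iLAF, and 4.31 and 5.85 in B3GALT5-KO and WT basal. For NEU1 and ARSA the pairs did not overlap either, with gaps of 0.77 and 0.80, below the 2-fold limit. Other genes of lysosomal breakdown were closer to level. GLA, alpha-galactosidase A, ranged from 47.0 to 64.9 TPM, GALC, which degrades galactosylceramide, from 8.71 to 11.0 TPM, and GM2A, the GM2 activator, from 26.6 to 30.1 TPM.

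SMPD1, HEXA and NEU1 were highest in B3GALT5-KO 2iLAF, the library with the granulocyte transcripts. In WT 5iLAF, where 8 of the 16 granulocyte markers were listed at 0, S100A8 among them, SMPD1, HEXA and NEU1 were higher than in WT basal by 3.01, 1.59 and 0.89 on the log2(TPM + 1) scale. Of the same list LYZ stood at 8.94 TPM in WT 5iLAF against 1.46 in WT basal, and PTPRC at 1.57 against 0.04 TPM. Fibroblast markers were high in both naive-labelled libraries, and the part of either cell type in these values was not tested. Among 29 lysosomal genes without a sphingolipid role, all of which passed the level filter, 2 met the rule for the pairs as higher and none as lower, beside 8.12% and 7.25% of all genes, with a median difference of 0.46. In single comparisons 10 of the 29 were higher and none lower in B3GALT5-KO 2iLAF against B3GALT5-KO basal, beside 15.9% higher and 11.8% lower of all genes. In WT 5iLAF against WT basal 4 were higher and 1 lower, beside 10.7% and 11.4% of all genes.

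**Figure D2:**
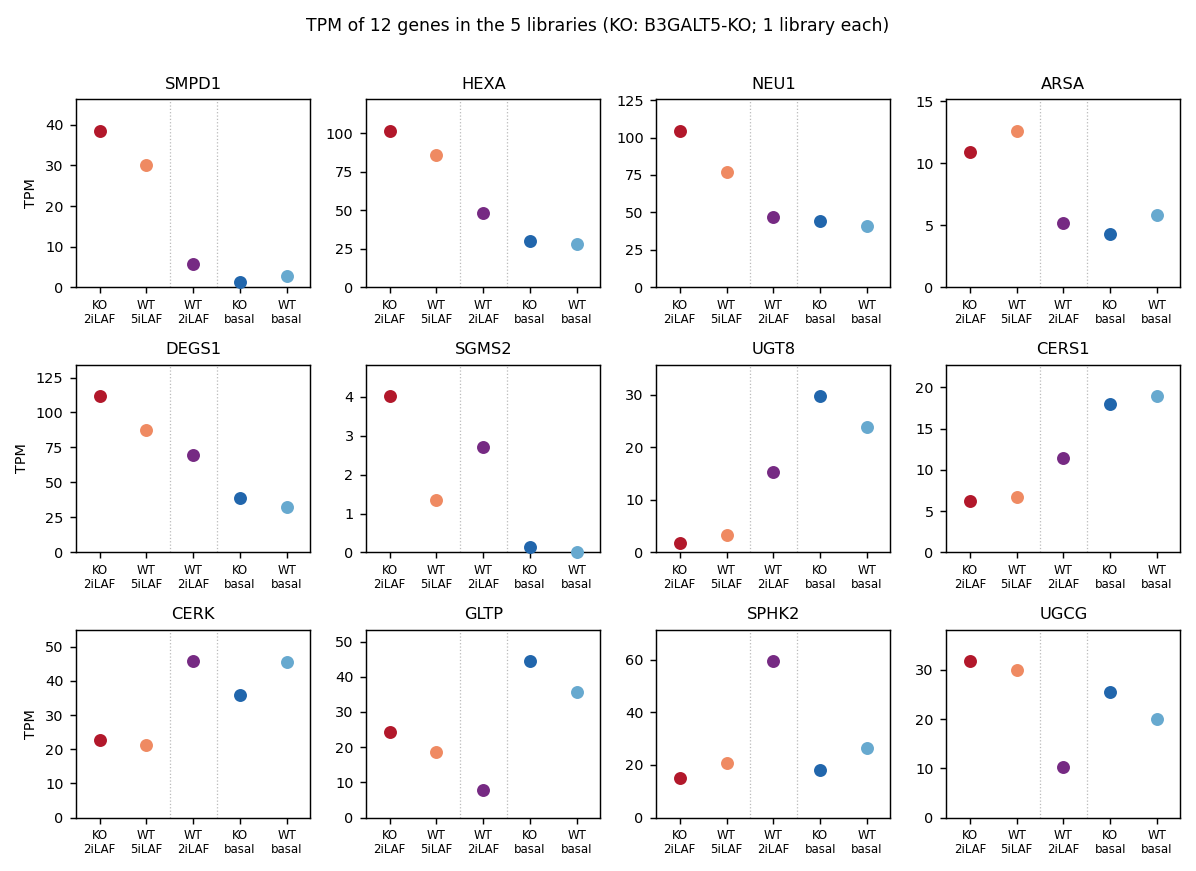
TPM (linear axis from 0) of 12 genes in each of the 5 libraries, 1 point per library, with no error bars because each condition has 1 library. SMPD1, HEXA, NEU1, ARSA and DEGS1 lie highest in the naive-labelled libraries at the left, UGT8, CERS1 and GLTP highest in the basal libraries at the right, and SPHK2, UGCG and GLTP have their extreme value in WT 2iLAF (59.5, 10.2 and 7.94 TPM).

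The promoter windows of the genes with the highest and lowest value in the comparison of pairs, SMPD1 and UGT8, are shown with that of NEU1, a lysosomal member whose window holds the motif marked below. NEU1 was chosen after its values were seen. They run from 250 bases before to 50 after a RefSeq start site in GRCh38.p14, read 5′ to 3′ on the gene's strand, and 35 of the 45 genes had such a window under their symbol or an earlier one. SMPD1 lies at chr11:6390224-6390523 (plus strand), NEU1 at chr6:31862772-31863071 (minus strand), and UGT8 at chr4:114598152-114598451 (plus strand). The last is 1 of 3 windows of that gene and was chosen because it alone of the 3 holds the motif marked below. Capitals mark CACGTG, the palindromic E-box core, which is also the centre of the element recognised by TFEB, the regulator of lysosomal genes.
SMPD1: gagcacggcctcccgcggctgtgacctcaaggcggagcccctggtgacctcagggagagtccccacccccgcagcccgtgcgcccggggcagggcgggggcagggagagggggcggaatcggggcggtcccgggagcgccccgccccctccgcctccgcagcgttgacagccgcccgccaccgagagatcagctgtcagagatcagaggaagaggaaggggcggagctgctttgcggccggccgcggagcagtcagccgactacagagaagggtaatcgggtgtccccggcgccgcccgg
NEU1: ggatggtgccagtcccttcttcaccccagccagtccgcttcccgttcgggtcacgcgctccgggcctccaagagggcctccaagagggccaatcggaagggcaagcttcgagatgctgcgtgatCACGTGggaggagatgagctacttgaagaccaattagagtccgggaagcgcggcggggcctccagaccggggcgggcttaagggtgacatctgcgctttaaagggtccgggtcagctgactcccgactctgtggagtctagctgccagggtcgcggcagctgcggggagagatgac
UGT8: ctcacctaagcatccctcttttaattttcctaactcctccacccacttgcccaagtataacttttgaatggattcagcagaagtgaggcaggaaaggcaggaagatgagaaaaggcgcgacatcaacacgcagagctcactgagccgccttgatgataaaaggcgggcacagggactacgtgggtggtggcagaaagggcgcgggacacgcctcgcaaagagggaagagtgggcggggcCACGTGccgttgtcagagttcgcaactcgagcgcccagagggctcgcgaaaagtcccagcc
The letters CACGTG occur once in the NEU1 window, once in this UGT8 window and not in that of SMPD1. They are in 7.26% of all 35116 promoter windows and in 2 of the 57 windows of the matched genes, 1 of NEU1 and 1 of UGT8. The longer CLEAR element of TFEB, which contains these letters, was also searched on both strands. It is in 0.353% of all windows and in 0 of the 57 windows of these genes, which says little at so low a share. SPTLC3, CERS2, CERS4, CERK, SMPD3, ASAH1, SGPP1, PSAP, HEXA and ARSA had no window and were not searched for either motif. A match describes the letters of a window and not a bound site.

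At the first step of synthesis the naive-labelled libraries held the highest levels of the main enzyme subunits, within 2-fold of the basal ones, and WT 2iLAF the lowest. SPTLC1 and SPTLC2 form the catalytic core of serine palmitoyltransferase. SPTLC2 stood at 32.4 TPM in B3GALT5-KO 2iLAF, 26.8 in WT 5iLAF, 12.2 in WT 2iLAF, 20.2 in B3GALT5-KO basal and 21.4 in WT basal. SPTLC1 followed the same order of groups within a narrower range, at 71.1, 66.5, 46.5, 52.9 and 58.3 TPM. SPTLC3, an alternative catalytic subunit that accepts shorter acyl chains, was low, at 2.64, 0.84, 1.35, 0.80 and 0.42 TPM in the same order. SPTLC2 made up between 90.0% and 98.1% of the summed TPM of SPTLC2 and SPTLC3. The ORMDL proteins hold the enzyme back when ceramide is plentiful. ORMDL1 varied least of the 41 genes, between 31.1 and 34.6 TPM, and ORMDL2 stayed between 35.4 and 46.5 TPM. ORMDL3 stood apart in WT 2iLAF, at 94.7 TPM, against 49.1 in B3GALT5-KO 2iLAF, 45.5 in WT 5iLAF, 46.2 in B3GALT5-KO basal and 61.4 in WT basal. Its share of the 3 ORMDL genes was 58.1% in WT 2iLAF and between 36.0% and 46.1% elsewhere. WT 2iLAF thus had the lowest sum of the palmitoyltransferase subunits, 60.0 TPM, beside the highest sum of ORMDL transcripts, 163 TPM. KDSR, which reduces the first product, was lower in the naive-labelled libraries without passing the 2-fold limit, at 11.6 and 12.6 TPM, against 13.5 in WT 2iLAF, 20.3 in B3GALT5-KO basal and 17.0 in WT basal.

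DEGS1, the desaturase that completes ceramide, was higher wherever cells had left basal medium. It stood at 112 TPM in B3GALT5-KO 2iLAF, 87.3 in WT 5iLAF and 69.6 in WT 2iLAF, against 39.1 in B3GALT5-KO basal and 32.4 in WT basal. Its log2 ratios over the basal library of the same genotype were 1.49, 1.40 and 1.08, of which the last lies close to the limit and was 1.00, just under it, with a pseudocount of 5. DEGS2, which makes the hydroxylated phytoceramide, stayed at or below 0.48 TPM. DEGS1 thus made up nearly all desaturase transcript in each library.

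Ceramide synthases join the sphingoid base to acyl chains of different length. CERS2, which prefers very long chains, took 53.9% of the summed TPM of the 6 genes in B3GALT5-KO 2iLAF, 48.8% in WT 5iLAF, 54.9% in WT 2iLAF, 54.2% in B3GALT5-KO basal and 52.7% in WT basal. CERS4 came next in each library, and was highest in WT 5iLAF at 88.8 TPM, or 32.0% of the family, against 21.4% to 24.0% in the other 4. CERS5 and CERS6, which favour palmitoyl chains, ranged from 28.4 to 34.9 TPM and from 14.8 to 22.2 TPM. CERS1, known for its high level in brain and muscle, was the synthase with the widest range across the libraries among those above 1 TPM. CERS1 stood at 6.23 TPM in B3GALT5-KO 2iLAF, 6.72 in WT 5iLAF, 11.5 in WT 2iLAF, 17.9 in B3GALT5-KO basal and 19.0 in WT basal. It went with a gap of -1.29 between the pairs (-0.97 with a pseudocount of 5, short of the limit), and with a share of the family of 2.49% and 2.42% in the naive-labelled against 5.84% and 6.94% in the B3GALT5-KO and WT basal libraries. CERS1 shares exons on the same strand with GDF1, so the division of reads between them is uncertain. GDF1 was listed at 0.46, 0.45, 1.72, 2.36 and 2.01 TPM in the same order of libraries, lower in both naive-labelled libraries than in the other 3.

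**Figure D3:**
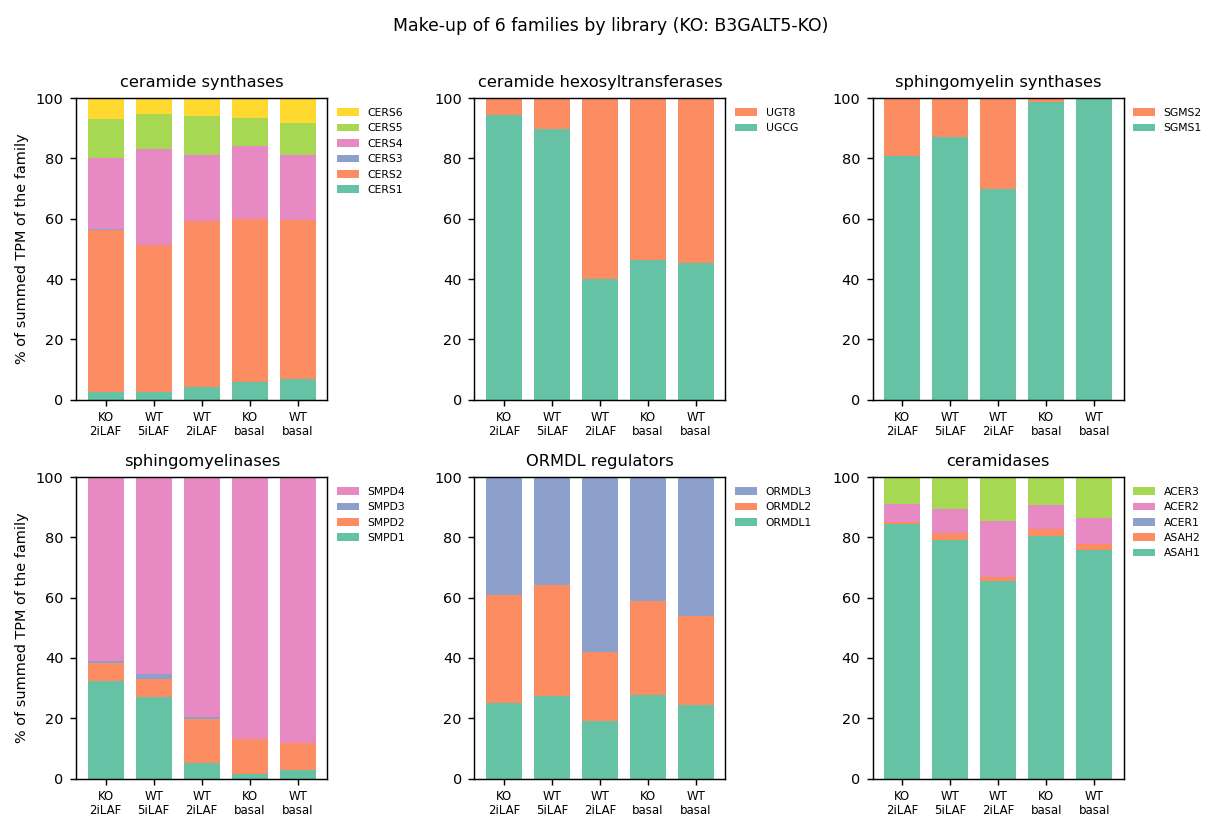
Share of each gene in the summed TPM of its family (percent, vertical axis) in the 5 libraries, for 6 families, with 1 bar per library. UGCG takes 94.5% and 89.9% of the hexosyltransferase bar in the naive-labelled libraries and 39.9% to 46.2% in the other 3, and SMPD1 takes 32.2% and 27.0% of the sphingomyelinase bar against 1.60% to 5.23%.

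Of the enzymes that place the first sugar on ceramide, UGT8 separated the pairs, with a gap of -2.51, and UGCG hardly did, with a gap of 0.22. UGT8, which adds galactose and is known as the cerebroside synthase of myelin, stood at 1.85 TPM in B3GALT5-KO 2iLAF and 3.38 in WT 5iLAF, against 15.4 in WT 2iLAF, 29.8 in B3GALT5-KO basal and 24.0 in WT basal. UGCG, which adds glucose and opens the route to globo-series lipids, stood at 31.8 and 30.0 TPM in the naive-labelled libraries, 10.2 in WT 2iLAF, and 25.6 and 19.9 in the B3GALT5-KO and WT basal ones. The ratio of UGCG to UGT8 transcripts was thus 17.2 in B3GALT5-KO 2iLAF and 8.88 in WT 5iLAF, against 0.664 in WT 2iLAF, 0.858 in B3GALT5-KO basal and 0.831 in WT basal. Galactosylceramide is sulfated by GAL3ST1, 1 of 48 other sphingolipid genes that were followed beside the 45. GAL3ST1 stood at 1.39 and 0.89 TPM in the naive-labelled libraries, 7.64 in WT 2iLAF, and 10.5 and 13.3 in B3GALT5-KO and WT basal, so both enzymes of the sulfatide branch were lower in naive-labelled cells.

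Of those 48 genes 40 passed the level filter, 4 met the rule for the pairs as higher and 8 as lower, beside 8.12% and 7.25% of all genes tested. The lowest was SPTSSB, a small subunit that activates serine palmitoyltransferase. It was listed at 0 in B3GALT5-KO 2iLAF and stood at 0.11 TPM in WT 5iLAF, 2.94 in WT 2iLAF, 25.0 in B3GALT5-KO basal and 17.7 in WT basal. SPTSSB was therefore lowest where the transcripts of SPTLC1 and SPTLC2 were highest. SPTSSA, another small subunit, was highest there, at 42.5 TPM in B3GALT5-KO 2iLAF and 39.8 in WT 5iLAF. It stood at 26.1 TPM in WT 2iLAF, 33.0 in B3GALT5-KO basal and 38.1 in WT basal. FAM57B, a relative of the ceramide synthases by its TLC domain, stood at 0.11 and 0.89 TPM in the naive-labelled libraries, 34.9 in WT 2iLAF, and 33.7 and 26.0 in B3GALT5-KO and WT basal. PLPP2, a phosphatase that can act on lipid phosphates, stood at 17.9 and 25.2 TPM, 67.9 in WT 2iLAF, and 102 and 101 in the basal libraries.

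Sphingomyelin synthases move phosphocholine onto ceramide. SGMS1, of the Golgi, stood at 17.2 TPM in B3GALT5-KO 2iLAF, 9.25 in WT 5iLAF, 6.22 in WT 2iLAF, 11.0 in B3GALT5-KO basal and 8.73 in WT basal. SGMS2, which also acts at the plasma membrane, was low throughout, at 4.03, 1.36, 2.70, 0.15 and 0.01 TPM in the same order, and all 3 libraries outside basal medium lay above both basal ones. Being low, SGMS2 lost its place in the comparison of pairs with a pseudocount of 5 (gap 0.30) and on FPKM (gap 0.64). Of the other sphingomyelinases, SMPD4, a neutral enzyme, held the largest share of the 4 genes in each library, at 72.7 to 88.8 TPM. SMPD2 was highest in WT 2iLAF at 15.8 TPM, against 6.80 to 10.1 TPM elsewhere, and SMPD3 stayed between 0.12 and 1.78 TPM. The sphingomyelinase sum thus differed little, from 88.2 to 120 TPM, while its make-up differed through SMPD1.

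Carriers and the ceramide kinase were lower in the naive-labelled cells in 2 of 3 cases. CERK, which makes ceramide-1-phosphate, stood at 22.8 TPM in B3GALT5-KO 2iLAF and 21.4 in WT 5iLAF, against 45.8 in WT 2iLAF, 35.9 in B3GALT5-KO basal and 45.4 in WT basal. GLTP, a glycolipid transfer protein of the cytosol, stood at 24.2 and 18.7 TPM in those naive-labelled libraries, 7.94 in WT 2iLAF, and 44.5 and 35.8 in B3GALT5-KO and WT basal. The pairs did not overlap for either gene, with gaps of -0.63 for CERK and -0.55 for GLTP. COL4A3BP, which encodes the carrier CERT that brings ceramide to the Golgi for sphingomyelin, was slightly higher in naive-labelled cells, at 33.9 and 35.2 TPM against 28.1 and 26.7 in B3GALT5-KO and WT basal, and lowest in WT 2iLAF at 21.9.

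Among ceramidases and the enzymes of sphingosine-1-phosphate, ASAH1, SPHK2 and SGPP1 stood apart in WT 2iLAF. ASAH1, acid ceramidase, stood at 23.3 TPM there, against 53.2 in B3GALT5-KO 2iLAF, 35.7 in WT 5iLAF, 53.2 in B3GALT5-KO basal and 38.9 in WT basal, so it did not follow the naive and primed labels. SPHK2, the nuclear and mitochondrial sphingosine kinase, stood at 59.5 TPM in WT 2iLAF, against 14.9 in B3GALT5-KO 2iLAF, 20.6 in WT 5iLAF, 18.2 in B3GALT5-KO basal and 26.5 in WT basal. SGPP1, which dephosphorylates sphingosine-1-phosphate, stood at 2.44 TPM in WT 2iLAF, against 7.45, 7.95, 9.84 and 8.34 TPM in those other libraries. SGPL1, the lyase that ends the pathway, was also lowest in WT 2iLAF, at 24.2 TPM against 27.7 to 38.4. SPHK2 transcript was thus highest, and SGPP1 and SGPL1 transcripts lowest, in WT 2iLAF. PLPP1 and PLPP3, of the same family as PLPP2 above, were not lowest there. PLPP3 was highest in WT 2iLAF, at 42.7 TPM against 13.7 to 23.5, and PLPP1 stood at 51.2 against 23.8 and 20.8 in B3GALT5-KO and WT basal. SPHK1, the cytosolic kinase, was low, between 1.69 and 3.43 TPM. ACER2 and ACER3, the alkaline ceramidases of Golgi and endoplasmic reticulum, ranged from 3.59 to 6.60 and from 4.70 to 7.01 TPM, and ACER1 was listed at 0 in every library. ASAH2, neutral ceramidase, stood between 0.42 and 1.37 TPM and is uncertain, since reads can be shared with its near copy ASAH2B, listed between 4.17 and 7.34 TPM. The remaining hydrolases, GBA2, the glucosylceramidase outside lysosomes, and NEU3, the plasma membrane sialidase, were lower in naive-labelled cells within 2-fold, with GBA2 at 51.5 and 67.4 TPM against 82.8 and 75.1 in B3GALT5-KO and WT basal, and NEU3 at 6.99 and 7.94 TPM against 13.2 and 13.2.

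**Figure D4:**
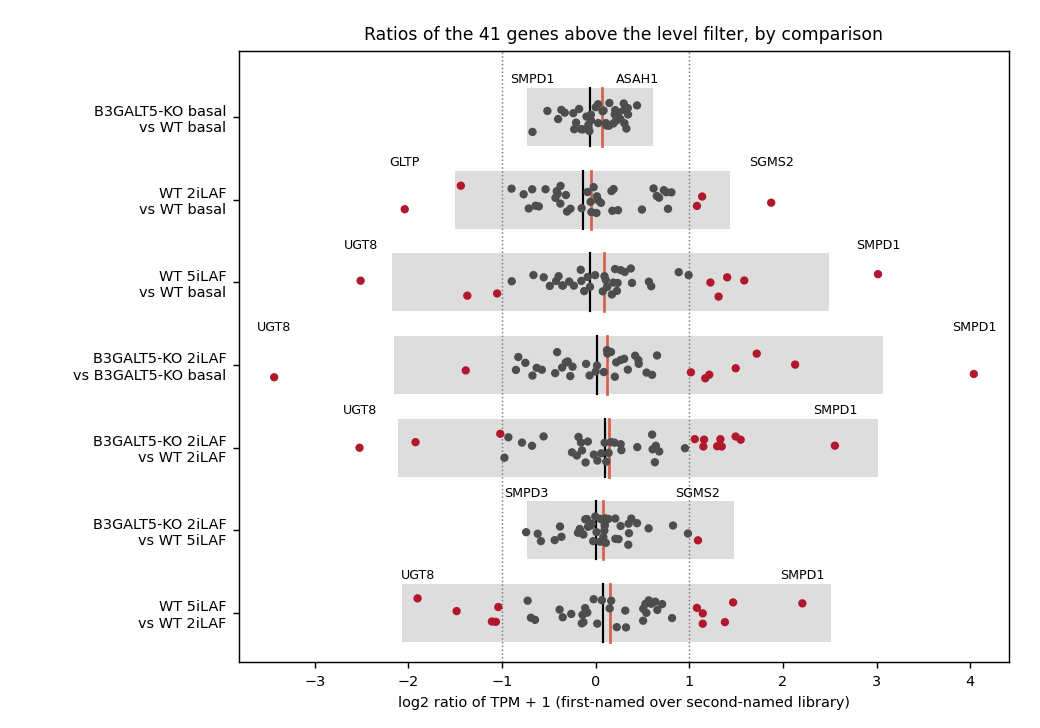
Log2 ratios of TPM + 1 (horizontal axis, first-named over second-named library) of the 41 genes, 1 row per comparison, with random vertical scatter. Grey bars span the middle 95% of all 15761 genes tested, black lines their median, red lines the median of the 41 genes, and red points lie at or beyond 2-fold. SMPD1 and UGT8 lie beyond the grey bar in both comparisons of a naive-labelled library with basal medium, and no point passes 2-fold between the basal libraries.

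Loss of B3GALT5 in basal medium went with no 2-fold difference in any of the 45 genes on the TPM + 1 scale. On plain TPM, SMPD1, SGMS2 and DEGS2, all at low levels in both libraries, did pass 2-fold, with ratios of 0.495, 15 and 0.229. The count was 0 for B3GALT5-KO basal against WT basal, where 1.76% of all genes tested passed (0.704% higher, 1.05% lower), and no p-value can be given with 1 library each. The lowest ratio was -0.68, for SMPD1 at 1.41 against 2.85 TPM, and the highest 0.44, for ASAH1 at 53.2 against 38.9 TPM. SPHK2 followed at -0.52, with 18.2 against 26.5 TPM. The median was 0.07 over the 41 genes and -0.06 over all genes tested. With a pseudocount of 0.1, 1 gene passed, SGMS2, at 0.15 against 0.01 TPM.

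The 2iLAF and 5iLAF media were each compared with basal medium in WT cells. Both comparisons share the WT basal library, as later ones share WT 2iLAF and B3GALT5-KO 2iLAF. For WT 2iLAF against WT basal 5 of 45 genes passed the limit, or 12.2% of the 41, beside 11.8% of all genes tested (4.73% higher, 7.03% lower). SGMS2, SPHK2 and DEGS1 were higher, with log2 ratios of 1.87, 1.14 and 1.08, and GLTP and SGPP1 lower, at -2.04 and -1.44. The median was -0.05 over the 41 genes and -0.13 over all genes tested, a shift of the whole library that median-ratio scaling removed without changing the count. For WT 5iLAF against WT basal 8 of 45 passed, or 19.5% of the 41, beside 22.1% of all genes (10.7% higher, 11.4% lower). SMPD1, HEXA, DEGS1, SMPD3 and SGMS2 were higher, with ratios of 3.01, 1.59, 1.40, 1.31 and 1.22, and UGT8, CERS1 and CERK lower, at -2.51, -1.37 and -1.05. The median was 0.09 over the 41 genes and -0.06 over all genes. The 5 higher and 3 lower became 6 and 2 after median-ratio scaling, which took CERK to -0.96, and 3 and 3 on FPKM.

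Set against each other directly, WT 5iLAF and WT 2iLAF differed by at least 2-fold in 11 of 45 genes, or 26.8% of the 41, beside 21.7% of all genes tested (12.2% higher, 9.54% lower). SMPD1 (2.21), UGCG (1.47), SGPP1 (1.38), GLTP (1.14), ARSA (1.14) and SPTLC2 (1.08) were higher in WT 5iLAF. UGT8 (-1.90), SPHK2 (-1.49), SMPD2 (-1.11), CERK (-1.07) and ORMDL3 (-1.04) were lower there. The 6 higher and 5 lower became 3 and 5 on FPKM, and the median was 0.15 over the 41 genes and 0.08 over all genes. WT 2iLAF held the lowest of the 5 values in 11 of the 41 genes, beside 31.2% of all genes, and the highest in 7, beside 18.4%. It lay at least 0.5 on the log2(TPM + 1) scale outside the range of the other 4 libraries in 8 genes, beside 11.7% of all genes. These were SPHK2, ORMDL3 and SMPD2 above it, and SGPP1, GLTP, UGCG, SPTLC2 and ASAH1 below it. Neuroectoderm markers also stood apart in WT 2iLAF, with 6 of 10 at or above 1 TPM and a sum of 321 TPM, against 16.1 TPM in B3GALT5-KO 2iLAF, 10.4 in WT 5iLAF, 42.5 in B3GALT5-KO basal and 15.6 in WT basal, and their part in these values was not tested.

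In B3GALT5-KO cells, 2iLAF was compared with basal medium, and 9 of 45 genes passed the limit, or 22.0% of the 41, beside 27.7% of all genes tested (15.9% higher, 11.8% lower). SMPD1 (4.04), SGMS2 (2.13), HEXA (1.72), DEGS1 (1.49), NEU1 (1.21), ARSA (1.17) and SPTLC3 (1.02) were higher, and UGT8 (-3.43) and CERS1 (-1.39) lower. The median was 0.12 over the 41 genes and 0.02 over all genes. SPTLC3 and ARSA lay close to the limit and fell short of it on FPKM, at 0.69 and 0.98. Against WT cells in the same 2iLAF medium, B3GALT5-KO cells differed in 12 of 45 genes, or 29.3% of the 41, beside 27.5% of all genes (16.6% higher, 10.8% lower). SMPD1 (2.55), UGCG (1.55), GLTP (1.49), SPTLC2 (1.35), SGMS1 (1.33), SGPP1 (1.30), ASAH1 (1.16), NEU1 (1.15) and HEXA (1.06) were higher in B3GALT5-KO 2iLAF, and UGT8 (-2.52), SPHK2 (-1.92) and SMPD2 (-1.02) lower. The 9 higher and 3 lower became 8 and 5 after median-ratio scaling, and HEXA then stood at 0.97. The median was 0.14 over the 41 genes and 0.10 over all genes. Since the labels give the 2 libraries different states, genotype and state cannot be told apart in this comparison.

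B3GALT5-KO 2iLAF and WT 5iLAF, which differ in genotype and medium, were close over all genes (Pearson's r of 0.97 across genes on the log2(TPM + 1) scale, where genes are not independent replicates), and the sphingolipid genes were near that background. SGMS2 was the 1 gene of 45 past the limit, at 4.03 against 1.36 TPM (log2 ratio 1.09), beside 5.93% of all genes tested (4.9% higher, 1.03% lower), and it fell short of it with a pseudocount of 5 (0.51) and on FPKM (0.81). SPTLC3 (0.98) and SGMS1 (0.83) followed among the higher genes, and SMPD3 (-0.74), UGT8 (-0.62) and CERS4 (-0.59) were lowest. The median was 0.08 over the 41 genes and 0.00 over all genes.

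**Figure D5:**
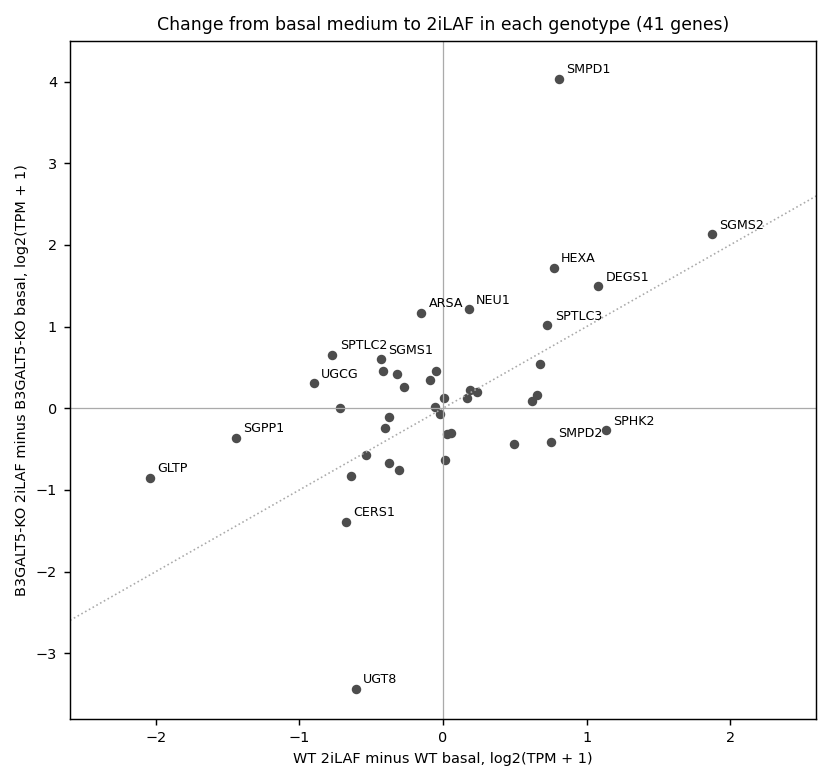
Log2 change of each of the 41 genes from basal medium to 2iLAF in B3GALT5-KO cells (vertical axis) and in WT cells (horizontal axis), both on the TPM + 1 scale, 1 point per gene. The dotted line marks equal change. SMPD1 (4.04 in B3GALT5-KO and 0.81 in WT) lies far above the line, and UGT8 (-3.43 and -0.61) far below it.

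Because 2iLAF was used with both genotypes, its change from basal medium could be set side by side in libraries that the comparisons do not share. DEGS1 was higher in 2iLAF by 1.49 in B3GALT5-KO and 1.08 in WT cells, and SGMS2 by 2.13 and 1.87, the same direction in both genotypes. GLTP was lower in both, by -0.85 in B3GALT5-KO and -2.04 in WT. The widest separation was that of SMPD1, with 4.04 in B3GALT5-KO and 0.81 in WT. UGT8 followed with -3.43 and -0.61. SPTLC2, SGMS1 and UGCG were higher in 2iLAF in B3GALT5-KO cells (0.65, 0.60 and 0.30) and lower in WT cells (-0.77, -0.43 and -0.90), and SPHK2 and SMPD2 were the other way about (-0.27 and -0.41 in B3GALT5-KO, 1.14 and 0.75 in WT). Over the 41 genes the change in B3GALT5-KO minus that in WT had a median of 0.11, against 0.19 over all genes tested. The labels give the 2iLAF libraries different states, naive for B3GALT5-KO and primed-naive for WT, and their cell type markers differed. Genotype, state and cell content therefore cannot be told apart here. With 1 library per condition these differences between the genotypes were not tested.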

How the data were processed

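RNA of 5 H9 cultures was sequenced from poly(A)-selected, stranded TruSeq libraries, per the labels' protocols. The submitters' processing notes name Trimmomatic 0.39, Bowtie2 2.3.4.1, RSEM 1.2.28 and build hg19. No source used here gives the annotation or RSEM's strand setting. A single table was deposited by the authors, with TPM values and FPKM values for each gene symbol, per the file headers. FPKM was used as an alternative, and 18 empty columns were not used. The table has no counts, so depth is unknown and no counting error is given. RSEM divides reads between genes that share sequence. Of the 45 genes, 16 have exons overlapped on the opposite strand and 2 (CERS1 and HEXA) on the same strand in GENCODE v29 (GRCh38), which can matter for their values. Among the 16 are SPHK2, overlapped by RPL18 and DBP among others, and SMPD2, ASAH1 and SGMS2.

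Each library was its own group by its title, and 7 pairs of libraries were compared as log2 ratios of TPM + 1 over all genes reaching 1 TPM in at least 1 library, with a 2-fold limit and no test. Naive-labelled and primed-labelled pairs were compared by the gap between their nearest values for the limit and single genes, and by the difference of their mean log2 values for medians. The procedure was checked on simulated data, with 4-fold changes put into genes at higher levels only. Changes near the 2-fold limit and genes at low levels were not covered. The genes, lists and rules were chosen with earlier results of these data known. Values in all libraries are given for genes past the limit that reach 5 TPM, for the highest gene of each role and for isoenzymes. Of 48 other sphingolipid genes the 4 with the largest pair difference among those reaching 5 TPM are named. CERS4, GBA2, SPTSSA, PLPP1, PLPP3 and the promoters shown were picked after values were seen. Alternatives were FPKM with a pseudocount of 1 FPKM, limits of 1.5-fold and 4-fold, scaling by median ratios or trimmed means, a level filter of 5 TPM or none, and a pseudocount of 0.1 or 5. Leaving out each library of the pairs in turn, and family shares on FPKM, were chosen after seeing the data. Promoter windows are RefSeq's, and no coordinates were matched to the table. Computation relied on matplotlib 3.10.9, scipy 1.17.1, pandas 2.3.3 and numpy 2.4.6 under Python 3.11.15.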

Additional observations from a re-analysis of the deposited data

Results flagged for a closer look

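SPTLC2, the catalytic subunit of serine palmitoyltransferase, had opposite differences between 2iLAF and basal medium in the genotypes, each of at least 1.5-fold. It was 0.65 higher in B3GALT5-KO cells (32.4 TPM in 2iLAF against 20.2 in basal medium) and stood at -0.77 in WT cells (12.2 TPM in 2iLAF against 21.4 in basal medium) on the log2(TPM + 1) scale, a separation of 1.42. The labels give the 2iLAF libraries of the genotypes different states, so genotype and state cannot be told apart. With 1 library per condition the difference was not tested.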

How the results depend on the processing

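No paired analysis was possible because each group holds 1 library, so that no groups share more than 1 replicate number. At 1.5-fold they were 1 for B3GALT5-KO basal against WT basal, 18 for WT 2iLAF and 13 for WT 5iLAF against WT basal, 16 for B3GALT5-KO 2iLAF against B3GALT5-KO basal, 22 against WT 2iLAF and 6 against WT 5iLAF, 19 for WT 5iLAF against WT 2iLAF, and 10 for the naive-labelled against the primed-labelled pair, beside 7.65%, 30.1%, 40.6%, 48.1%, 47.0%, 13.7%, 40.6% and 28.3% of all genes. At 4-fold they were 0, 1, 2, 3, 2, 0, 1 and 2 in the same order, beside 0.279%, 2.49%, 6.92%, 9.07%, 9.02%, 1.43%, 6.81% and 4.75%. A pseudocount of 0.1 gave 1 gene between the basal libraries (main count 0), 8 for WT 2iLAF against WT basal (5) and 3 for B3GALT5-KO 2iLAF against WT 5iLAF (1), beside 5.40%, 19.1% and 10.9% of all genes. A pseudocount of 5 gave 2 for WT 2iLAF (5) and 5 for WT 5iLAF (8) against WT basal, 0 for B3GALT5-KO 2iLAF against WT 5iLAF (1) and 4 for WT 5iLAF against WT 2iLAF (11), beside 5.11%, 10.9%, 2.05% and 10.7%. B3GALT5-KO 2iLAF against WT 5iLAF also gave 0 with a filter of 5 TPM and on FPKM, beside 4.61% and 3.74%. The cause was not tested. The other 52 of 76 alternative counts were within 1.5 times the main count. Among them was leaving out each library of the pairs, which gave 6 to 8 and could not give fewer than 6. All 56 alternative medians lay inside the 95% order-statistic interval of the main median over the 41 genes. That interval treats the genes as independent and is wide, so staying inside it says little. For WT 2iLAF against WT basal it ran from -0.377 to 0.177, and median-ratio scaling moved the median from -0.05 to 0.13. Of 461 single-gene values, all for genes past the limit in the main setting, 78 no longer passed it. That 0 changed sign says little, since other pseudocounts, filters or limits cannot turn a sign. Shares of UGCG, CERS2, SMPD1 and SPHK2 in their families moved by less than 1 percentage point on FPKM, which is proportional to TPM within a library. Depth is unknown, so genes below about 5 TPM, SGMS2, SMPD3 and SPTLC3 among them, are the least certain.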

Other observations

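Fatty acid elongases supply the acyl chains that ceramide synthases use, and their members lay on both sides between the states. These genes, and the receptors below, were chosen after their values were seen. ELOVL1, which extends saturated very long chains, stood at 91.8 TPM in B3GALT5-KO 2iLAF, 80.0 in WT 5iLAF, 41.8 in WT 2iLAF, 36.9 in B3GALT5-KO basal and 35.9 in WT basal. ELOVL4 and ELOVL7 ran the other way, with ELOVL4 at 2.43 and 2.55 TPM in the naive-labelled libraries, 6.87 in WT 2iLAF, and 9.25 and 9.02 in B3GALT5-KO and WT basal. ELOVL5, at the highest level of the elongases, stayed between 115 and 195 TPM.

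Receptors of sphingosine-1-phosphate also differed by member. S1PR3 stood at 14.4 TPM in B3GALT5-KO 2iLAF and 12.5 in WT 5iLAF, against 2.85 in WT 2iLAF, 5.22 in B3GALT5-KO basal and 5.62 in WT basal. S1PR2 and S1PR5 were lower in the naive-labelled libraries, with S1PR2 at 3.20 and 3.10 TPM against 8.28 and 6.99 in B3GALT5-KO and WT basal, and S1PR5 at 2.57 and 1.81 against 7.90 and 6.28. S1PR1 stood at 3.07 TPM in B3GALT5-KO 2iLAF and between 0.20 and 1.31 TPM in the other 4 libraries. It is also expressed by blood cells, and the granulocyte markers summed to 1327.5 TPM in that library. Their part in the S1PR1 value was not tested. Of the 48 other sphingolipid genes 0 passed the 2-fold limit between the basal libraries, beside 1.76% of all genes. Against WT basal 2 were higher and 4 lower in WT 2iLAF (4.73% and 7.03% of all genes), and 7 higher and 9 lower in WT 5iLAF (10.7% and 11.4%). For B3GALT5-KO 2iLAF the counts were 6 higher and 10 lower against B3GALT5-KO basal (15.9% and 11.8%), 10 higher and 10 lower against WT 2iLAF (16.6% and 10.8%), and 1 higher and 0 lower against WT 5iLAF (4.9% and 1.03%). WT 5iLAF against WT 2iLAF had 6 higher and 10 lower (12.2% and 9.54%).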
